A study of Isoetes sinensis with 3 samples.

Results

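Chromosomes 13 and 14 of *Isoetes sinensis*, an aquatic quillwort and a tetraploid lycophyte, held almost the same number of annotated genes. Every gene that the annotation places on either pseudochromosome was taken, which gave 2378 genes on chromosome 13 and 2409 on chromosome 14. These are 4787 of 57303 genes in all (8.35%), and 49276 genes lie on the other 20 pseudochromosomes and 3240 on unplaced scaffolds. The equal total was the sum of unequal stretches. Near the start of the chromosomes 1 stretch ran in reverse order on the 2 chromosomes, and 14 carried 98 more genes beside it. The stretch itself held 23 more genes on 13, and other intervals and the ends offset part of what remained.

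To help annotate the genome, the study sequenced RNA from 3 tissues of *I. sinensis*, labelled root, shoot and sporophyte, with 1 library each. The methods name sporangia where the labels name sporophyte. The labels give no age or treatment, and the annotation is 1 set of gene models that belongs to no tissue, so no tissues were compared here. Each gene has 1 mRNA, and all positions are in bp on the authors' own assembly, counted from 1. There are no replicates and no counting depth, so the spread given is that over the other 20 pseudochromosomes or over the other 10 chromosome pairs, and no p-value is given.

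A tetraploid that arose by whole-genome duplication or hybridisation carries its genes on related chromosomes. The study uses the word homoeologs for genes that correspond between paired chromosomes of *I. sinensis*. After a duplication the copies start in the same order, whereas in a hybrid the partners can differ from the start. Inversions, losses, duplications and insertions then add to the differences. When the differences described here arose was not tested. Inside a coding region, exon lengths tend to last because a change that is no multiple of the codon length shifts the reading frame, whereas introns can gain or lose bases freely. A list of exon lengths can therefore serve as a mark by which the copies of a gene are found without their sequence. No gene on either chromosome carries a symbol or function in the annotation, so genes are given by identifier and structure alone.

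The kind of mark used is shown by the first matched genes. On chromosome 13, evm.TU.Chr13.12 (992110 to 995190, plus strand) had 8 coding (CDS) segments of 312, 42, 177, 151, 87, 125, 119 and 124 bp. On chromosome 14, evm.TU.Chr14.18 (425811 to 429075, plus strand) had the same 8 lengths. Of the 7 introns between these segments, the second measured 410 bp on 13 and 397 bp on 14, and the other 6 were of equal length. A pair of genes was called matched when both had at least 5 CDS segments, shared the ordered list of internal segment lengths (all but the first and last), and no other gene on a pseudochromosome had that list.

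The difference of 31 genes was the smallest among the 11 chromosome pairs. In the other 10 pairs it ran from 32 to 343 genes with a median of 99.5. As a percentage of the mean gene number it was 1.30%, and 1 other pair lay lower, at 1.19%. The next smallest difference is 1 gene away, so the order of the closest pairs rests on single gene models. With the last annotated gene as the end, chromosome 13 reached 89.1 Mb and chromosome 14 reached 86.7 Mb. This difference of 2.39 Mb had 2 smaller ones among the other pairs, which ranged from 1.86 to 18.2 Mb.

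**Figure D1:**
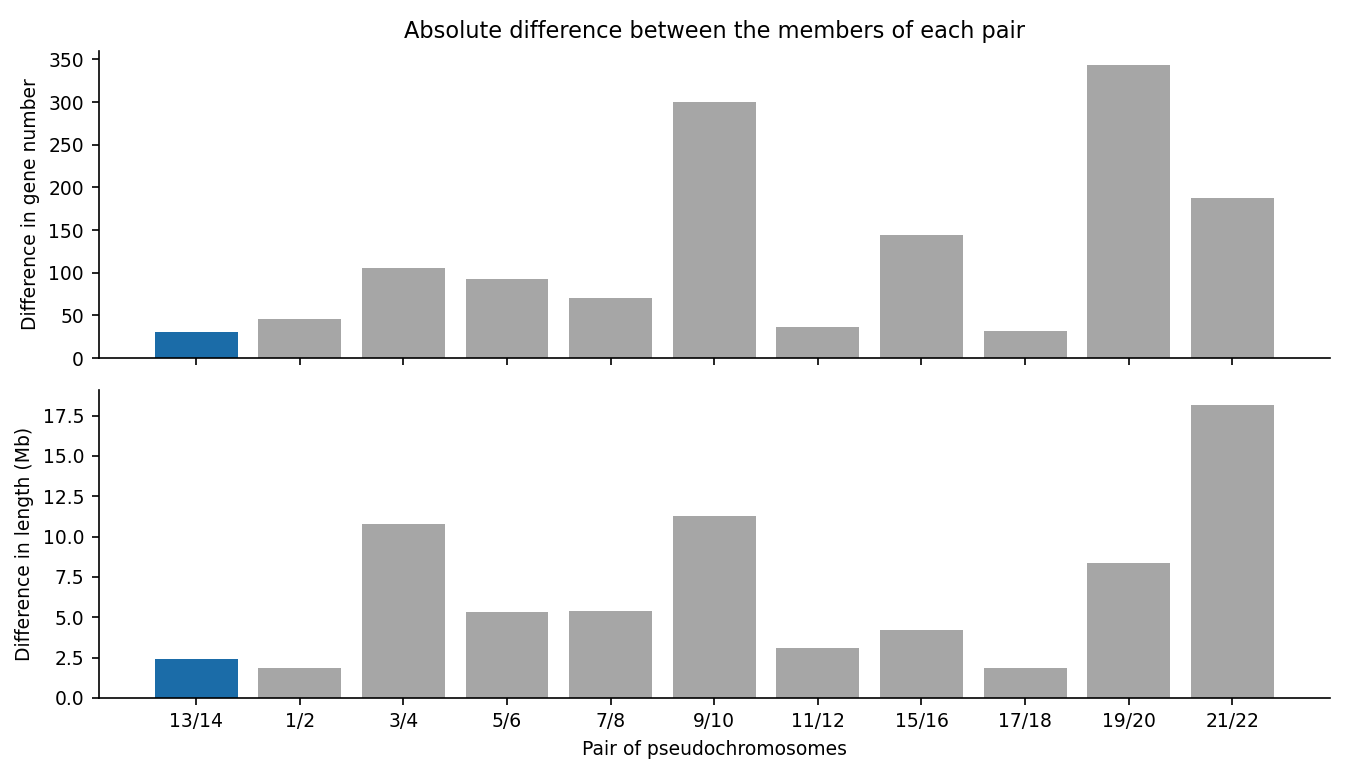
Absolute difference in gene number (upper panel) and in length to the last gene in Mb (lower panel) for each of the 11 chromosome pairs, 1 bar per pair with 13 and 14 in blue at the left. The bar of 31 genes is the lowest of its panel, and the bar of 2.39 Mb has 2 lower ones beside it.

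Genes were spaced more widely on 13. Chromosome 13 had 26.7 genes per Mb and chromosome 14 had 27.8, ranks 21 and 16 from the highest of 22. The difference of -1.09 genes per Mb was within the SD of this difference over the other pairs (1.49). The median gap between neighbouring genes was 22050 bp on 13 and 21519.5 bp on 14, and the mean gap 34796 bp on 13 and 33140 bp on 14. Much of the gap in the means lay in the widest spaces. Gaps of at least 100 kb numbered 150 on 13 and 137 on 14 and took 24.4 Mb of 13 and 21.1 Mb of 14, while gaps under 1 kb numbered 265 on 13 and 264 on 14. Gene models covered 7.59% of chromosome 13 and 8.46% of chromosome 14. The share of 13 was the lowest of the 22 only by a hair, since that of chromosome 22 also rounds to 7.59%.

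The widest empty stretch of chromosome 13 was 496 kb, between evm.TU.Chr13.3514 (68283210 to 68284577) and evm.TU.Chr13.3521 (68780858 to 68788120). The second widest, 440 kb, lay less than 1 Mb before it. On chromosome 14 the widest stretch was 575 kb, between evm.TU.Chr14.1615 (29302760 to 29303667) and evm.TU.Chr14.1617 (29878559 to 29879074). None of these 4 flanking genes had an annotated UTR, and they had 2 to 4 exons each. In windows of 500 kb the mean was 13.3 genes on 13 (SD 4.68 over 178 windows) and 13.9 on 14 (SD 4.39 over 173 windows). Windows with at most 5 genes numbered 13 on 13 and 7 on 14, and neither chromosome had an empty one.

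**Figure D2:**
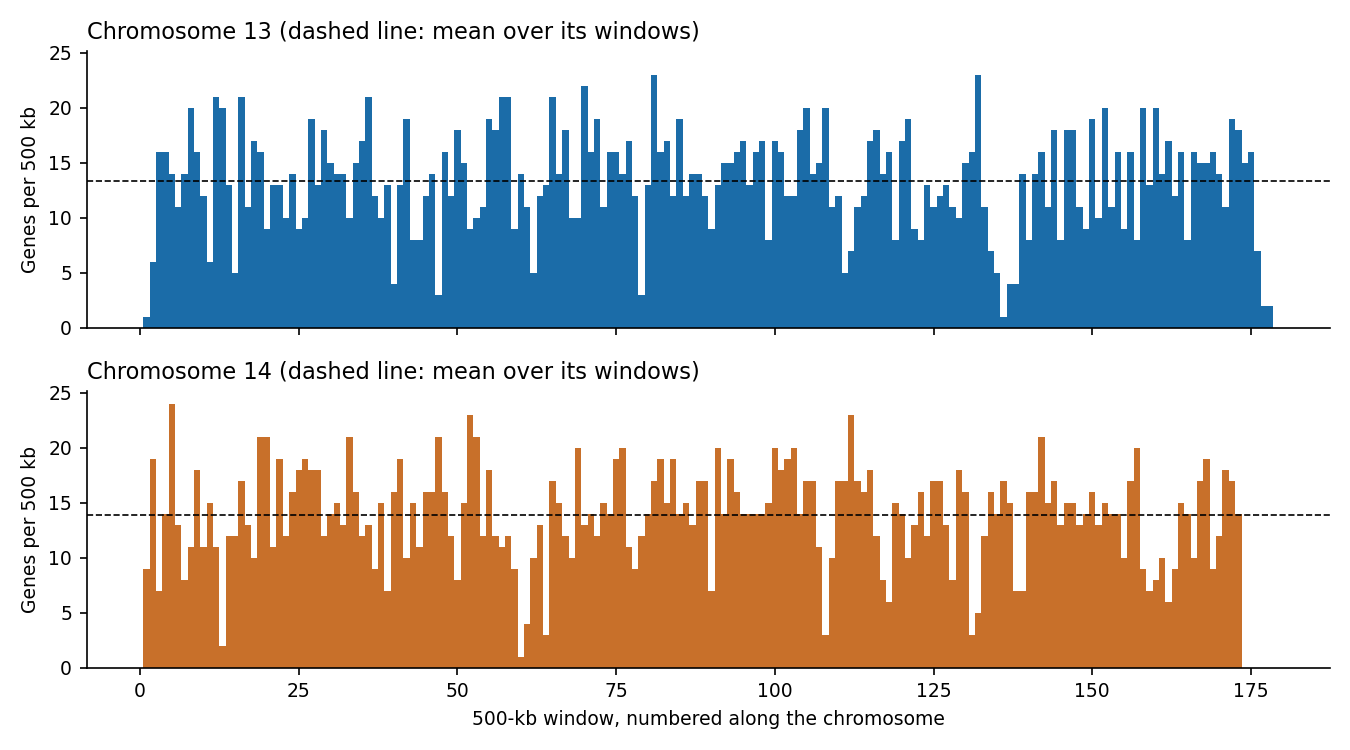
Genes per 500-kb window, counted at the gene midpoint, along chromosome 13 (178 windows, upper panel) and chromosome 14 (173 windows, lower panel). Dashed lines mark the means of 13.3 and 13.9 genes, and windows with at most 5 genes number 13 on chromosome 13 and 7 on chromosome 14.

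Gene structure differed by amounts close to the spread over the other pairs. The mean CDS was 1076 bp on 13 and 1097 bp on 14, a difference of -20.6 bp against an SD of 21.0 bp over the other pairs. Genes had 4.60 exons on 13 and 4.71 on 14, a difference of -0.11 that is above the SD of 0.099. The mean intron was 413 bp on 13 and 450 bp on 14, and this difference of -37.3 bp is also above its SD, 33.2 bp. Single-exon genes made up 21.5% of chromosome 13 (512 genes, 95% Wilson interval 19.9 to 23.2) and 21.2% of chromosome 14 (510 genes, 19.6 to 22.8). These intervals treat the genes as independent. The median intron was 103 bp on 13 and 104 bp on 14, and 53.5% of introns on 13 and 53.3% on 14 measured 60 to 120 bp. Genes with at least 5 CDS segments, those that could be matched, numbered 767 on 13 and 768 on 14. Genes with an annotated UTR numbered 1175 on 13 (49.4%) and 1205 on 14 (50.0%). Both chromosomes lay toward the low end of the 22 for exons per gene, with ranks 21 and 19 from the highest.

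Gene length differed in the mean and not in the middle of the distribution. The mean was 2855 bp on 13, the lowest of the 22, and 3070 bp on 14, a difference of -215 bp against an SD of 159 bp over the other pairs. The median was 1912 bp on 13 and 1888 bp on 14, so its difference had the other sign. Total intron length was 3.53 Mb on 13 and 4.02 Mb on 14, and introns over 1 kb held 1.99 Mb on 13 and 2.42 Mb on 14. The 10 longest introns summed to 587 kb on 13 and 748 kb on 14. The difference in the mean was -214 bp without the gene with the longest intron on each chromosome, and -124 bp without all genes that have an intron over 20 kb. That gene on 13, evm.TU.Chr13.3272_evm.TU.Chr13.3288, spans 163 kb with an intron of 158 kb. The longest gene of 14, evm.TU.Chr14.1685 (31517026 to 31685119), spans 168 kb with a CDS of 504 bp, and 1 of its introns takes 167 kb.

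Between the chromosomes, 303 gene pairs matched. They comprise 39.5% of the genes with at least 5 CDS segments on either chromosome, against 32.9% to 44.2% with a median of 42.5% in the other pairs, 8 of which lay higher. Of the others, 381 on 13 and 385 on 14 had a structure found in no other placed gene, 14 on 13 and 8 on 14 matched a gene of their own chromosome, and 14 on 13 and 14 on 14 matched a gene of an unpaired chromosome. Another 55 on 13 and 58 on 14 had a structure shared by at least 3 genes, and in 48 of these on 13 and 45 on 14 a holder lay on the partner. Annotated UTRs were found in 93.7% of matched genes on 13 and 90.1% on 14. In unmatched genes with at least 5 CDS segments the share was 48.9% on 13 and 51.4% on 14. How far this difference in annotation bears on the number of matches was not tested.

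Matches were unevenly spread, and the 2 chromosomes had their richest part at the same place. Each pair counts once on each chromosome, so the 2 profiles are not independent. From 50 to 60 Mb, 60 of 108 eligible genes on 13 (55.6%) and 61 of 110 on 14 (55.5%) were matched. In the remaining 10-Mb bins the share ran from 25.3% to 48.4% on 13 and from 31.5% to 51.2% on 14. The bin with the lowest share on 13, from 30 to 40 Mb, had 20 of 79 matched, and it holds the interval without matches described further on. The UTR share followed the match share in these bins only in part. It was highest from 50 to 60 Mb on both chromosomes, at 57.8% of all genes on 13 and 53.8% on 14, and on 13 it was lowest from 30 to 40 Mb, at 42.9%. The lowest on 14 was 41.8%, from 70 to 80 Mb. Other bins departed from this. On 14, the bin from 20 to 30 Mb had 51.2% matched and UTRs in 49.6% of its genes. On 13, the bin from 60 to 70 Mb had 41.1% matched and UTRs in 43.0%. The part of the UTR share in the match share was not tested.

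The order of matched genes was nearly the same along the whole length. Spearman's rho of position was 0.9996 over the 303 pairs, a description across genes that are not independent, and 2 other chromosome pairs had a higher value. In 234 of 302 steps from 1 matched gene on 13 to the next, the copy on 14 was also the next one, and in 31 steps it was the one before. The longest unbroken run held 63 pairs. It spans 21.8 Mb on 13 (24284540 to 46069916) with 621 genes, and 19.6 Mb on 14 (25283232 to 44875899) with 533 genes. The run thus kept its matched genes in order while 13 held 88 more genes in it.

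**Figure D3:**
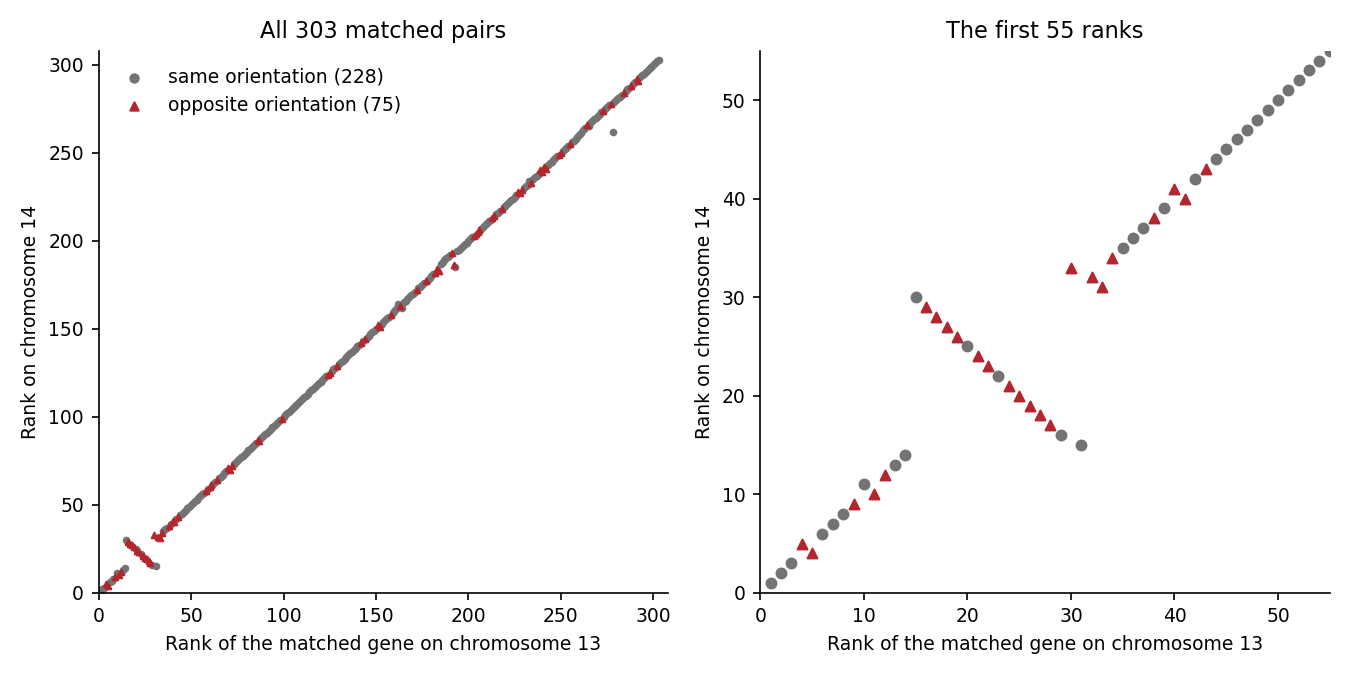
Rank of each of the 303 matched genes on chromosome 13 (x axis) against its rank on chromosome 14 (y axis), for all pairs (left) and for the first 55 ranks (right). Grey points are the 228 pairs on the same strand and red triangles the 75 on opposite strands. Most points follow the diagonal. The longest departure is the descending line near the start, and 16 shorter reversed runs of 2 or 3 pairs and a few single genes also leave it.

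The longest exception to the common order was a stretch near the start of both chromosomes. From evm.TU.Chr13.181 (4131252 to 4136310) to evm.TU.Chr13.367 (7462167 to 7506521), 15 consecutive matched genes stood in descending order on 14, from evm.TU.Chr14.462 (8688078 to 8692225) down to evm.TU.Chr14.313 (5845269 to 5848931). Of these pairs 11 lay on opposite strands and 4 on the same strand. Leaving aside evm.TU.Chr13.413, whose copy lies elsewhere, the next pair, evm.TU.Chr13.416 with evm.TU.Chr14.248, continued the descent to 16 pairs, 14 of them with identical CDS length. The whole stretch measures 4.29 Mb with 121 genes on 13 and 3.87 Mb with 98 genes on 14. Among the other 10 chromosome pairs, the longest run of this kind held 3 to 21 matched genes, and 2 of them exceeded 15. Whether the reversal lies in the chromosomes or in the placement of contigs was not tested, since contig borders were not analysed here.

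On both sides of the reversed stretch chromosome 14 held more genes without a match. Between the last matched gene in common order (evm.TU.Chr13.141 and evm.TU.Chr14.151) and the low end of the stretch, 13 had 21 genes in 0.599 Mb and 14 had 53 genes in 2.17 Mb. Between the high end and evm.TU.Chr13.489 or evm.TU.Chr14.653, 13 had 38 genes in 1.19 Mb and 14 had 104 genes in 3.46 Mb. Together the flanks gave 59 genes on 13 and 157 on 14. On 14 none of the 49 flanking genes with at least 5 CDS segments was matched, and on 13 1 of 13 was.

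The high flank of 14 contains the longest unmatched run of either chromosome. From evm.TU.Chr14.468 to evm.TU.Chr14.649 (9160155 to 12085066), 33 consecutive genes with at least 5 CDS segments had no match on 13, and 29 of them had a structure seen once among the placed genes. The low flank holds a second such run, 16 genes from 2921962 to 4651015. The first run spans 101 genes of all sizes, 51.5% of them with an annotated UTR, and the second spans 44 genes, 38.6% of them with one, against 50.0% over the whole of chromosome 14. On the other 20 pseudochromosomes the longest such run was 12 to 119 genes with a median of 24.5, and 7 of them exceeded 33.

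The longest unmatched run of chromosome 13 lay elsewhere. From evm.TU.Chr13.1608 to evm.TU.Chr13.1717 (31751418 to 33707465), 17 genes with at least 5 CDS segments had no match on 14. Of the other 20 pseudochromosomes, 13 had a longer such run. Between the matched genes on either side, evm.TU.Chr13.1607 and evm.TU.Chr13.1719, there were 63 genes in 2.04 Mb on 13, against 16 genes in 0.545 Mb on 14. The density was alike, 30.9 genes per Mb on 13 and 29.4 on 14, so the interval on 13 was longer rather than denser. UTRs were annotated in 36.5% of its genes on 13 and 43.8% on 14.

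How these stretches added up was followed between anchors, the largest set of matched genes that stand in the same order on both chromosomes. The 268 anchors bounded 267 intervals with 2092 genes on 13 and 2134 on 14. Of the intervals, 103 held more genes on 13, 102 held more on 14 and 62 held equal numbers. The excess was 510 genes on 13 and 552 on 14, a net of -42. Most intervals differed little, with at most 3 genes in 191 of them and over 10 in 16. The sum of the absolute differences, 1062 genes, was 22.2% of all genes on the pair, against 17.2% to 28.8% in the other pairs.

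Read along the chromosomes, the running difference (13 minus 14) stood at 5 genes before the reversed region and at -70 after it. In the next interval, 13 had 32 genes and 14 had 65, 38.5 per Mb on 14 and 22.3 per Mb on 13. The running sum then reached its lowest point of -112. Within the long common run, after the interval of 63 and 16 genes, it was back at -4, and from there on it stayed between -48 and 17. Length also had its lowest running sum after the reversed region, at -3.65 Mb, but parted from the gene sum later. Its highest value there was 2.73 Mb and its end value 0.472 Mb, whereas the gene sum ended at -42. Over 134 intervals 13 was the longer and over 133 it was 14.

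**Figure D4:**
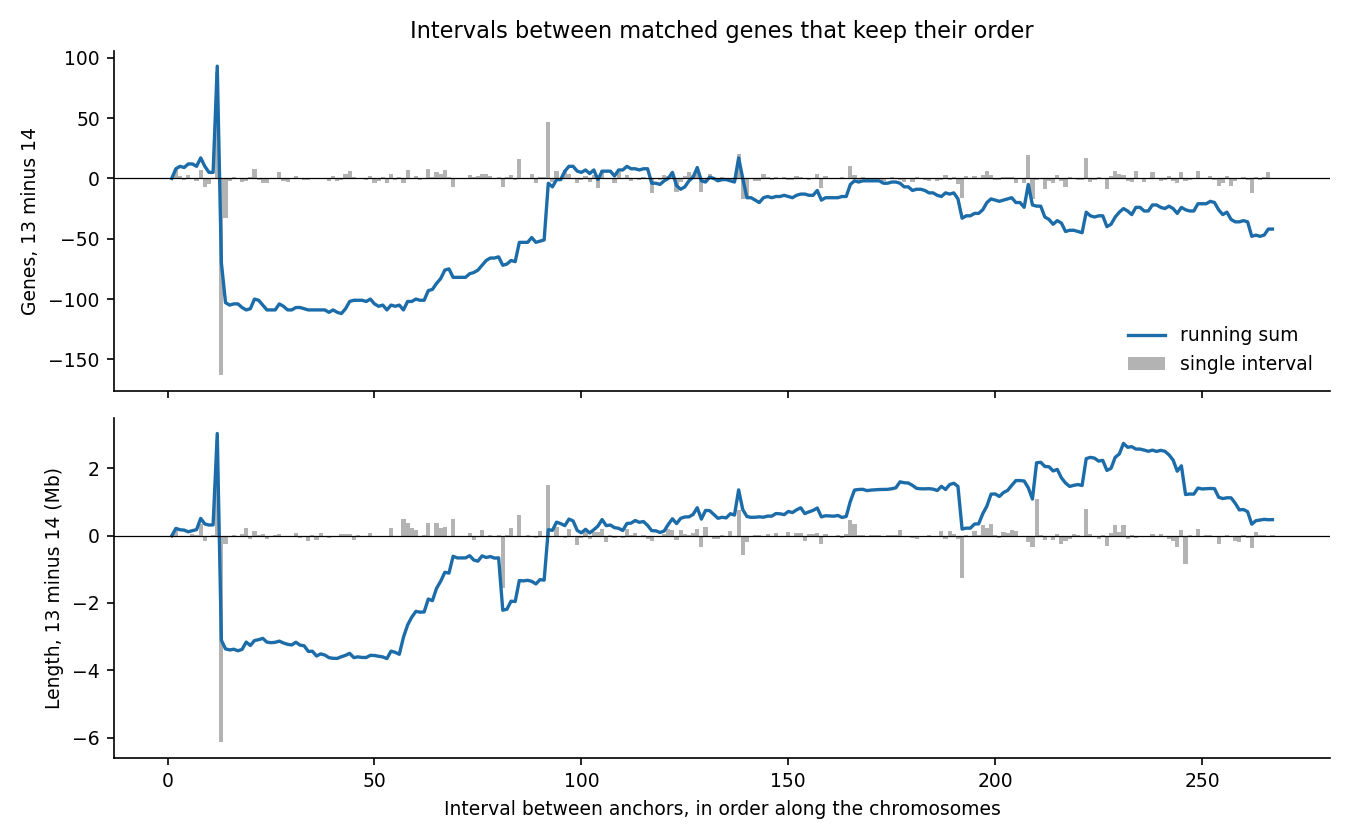
Difference in gene number (upper panel) and in length in Mb (lower panel), 13 minus 14, for each of the 267 intervals between anchors in order (grey bars), with the running sum as a blue line. The pair of tall bars near the start comes from 1 anchor, evm.TU.Chr13.416, that lies inside the reversed stretch. The gene line falls to -112, returns to -4, and ends at -42.

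The ends of the chromosomes account for the rest. Before the first anchor 13 had 6 genes in 0.992 Mb and 14 had 7 in 0.426 Mb. The last anchor of 14, evm.TU.Chr14.4630 (86660488 to 86663583), is also its last gene, whereas 13 went on for 1.35 Mb with 11 genes after evm.TU.Chr13.4528 (87699077 to 87702198). That tail had 8.14 genes per Mb, and none of its 11 genes had a UTR. The tail held 5 genes with at least 5 CDS segments and none of them matched 14. With 1 further gene on 13 that starts where an anchor starts, evm.TU.Chr13.3272, the intervals and the ends give the difference of -31. Between the outer anchors the chromosomes measured 86.7 Mb on 13 and 86.2 Mb on 14.

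Some intervals differed more in length than in gene number, relative to their size. At the widest gap of 14, the interval from evm.TU.Chr13.1465 had 19 genes in 0.466 Mb on 13, against 26 genes in 2.02 Mb on 14 from evm.TU.Chr14.1577. At the widest gap of 13, the interval from evm.TU.Chr13.3452 had 36 genes in 3.13 Mb on 13, against 37 genes in 2.05 Mb on 14 from evm.TU.Chr14.3450. The density there was 11.5 genes per Mb on 13 and 18.0 on 14, so both chromosomes were sparse in that interval.

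Opposite strands were more frequent than reversed order, which covered 48 pairs. In 75 of the 303 pairs (24.8%, 95% Wilson interval 20.2 to 29.9, which treats the pairs as independent) the copies lay on opposite strands, and in the other chromosome pairs the share was 20.3% to 31.0%. These pairs formed 42 runs along 13, of which 22 were single pairs, 12 held 2 pairs and 8 held at least 3. Of those 8, 2 stood wholly in reversed order, both inside the reversed stretch, 5 held reversed and forward steps, and 1 had no reversed step. That block of 4 pairs ran from evm.TU.Chr13.2960 to evm.TU.Chr13.3016 (56933699 to 57728684) and from evm.TU.Chr14.2952 to evm.TU.Chr14.2992 (54996573 to 55569396). Apart from the long stretch there were 16 reversed runs, 15 of 2 pairs and 1 of 3.

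Some copies stood away from their neighbours, among them 2 single genes. The CDS of evm.TU.Chr13.413 (8341609 to 8344808) and evm.TU.Chr14.725 (13322280 to 13325471) was 1683 bp in both, and on 14 the gene lay beyond the reversed region. The CDS of evm.TU.Chr13.4232 (81936769 to 81949496) and evm.TU.Chr14.3988 (74224176 to 74236872) was 1965 bp in both, with 21 segments, and the copy on 14 lay far ahead of the copies of its neighbours.

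The internal CDS segments of matched copies are equal in length by the matching rule, so their coding length could differ only in the first and last segments. The CDS was of identical length in 262 of 303 pairs (86.5%, 95% Wilson interval 82.2 to 89.9), against 83.0% to 88.5% in the other chromosome pairs. The interval treats the pairs as independent. In the 41 unequal pairs the median absolute difference was 33 bp. All 606 matched genes had a CDS that is a multiple of 3, as had 98.4% of all genes on 13 and 98.9% on 14. Every difference is therefore one as well. The first segment differed in 28 of the 41 pairs and the last in 13. Chromosome 13 had the longer CDS in 25 and chromosome 14 in 16. The largest difference was between evm.TU.Chr13.2775 (52833253 to 52837471, plus strand, 2007 bp) and evm.TU.Chr14.2802 (51584600 to 51590259, minus strand, 1677 bp). Their first 20 of 21 segments had equal lengths, and the last measured 554 bp on 13 and 224 bp on 14.

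Introns were compared in the same pairs. Of 2174 introns between internal CDS segments, 1497 had the same length in both copies (68.9%), against 66.3% to 74.3% in the other chromosome pairs. Among the unequal ones 339 were longer on 13 and 338 longer on 14, and the median difference was 5 bp. The identical share was 89.4% where the longer copy measured at most 80 bp (708 of 792), and 79.0% in the next class, up to 120 bp. It was 63.6% up to 300 bp, 33.1% up to 1000 bp, and 6.86% above that (7 of 102). Classed by the longer copy, an intron that differs greatly falls into a longer class by its own difference. Classed by the shorter copy, a setting chosen after seeing the data, the share was 86.0% in the shortest class (708 of 823) and 7.87% in the longest (7 of 89). In each class by the longer copy the longer copies were split between the chromosomes, with 43 on 13 and 41 on 14 in the shortest class and 46 on 13 and 49 on 14 in the longest.

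**Figure D5:**
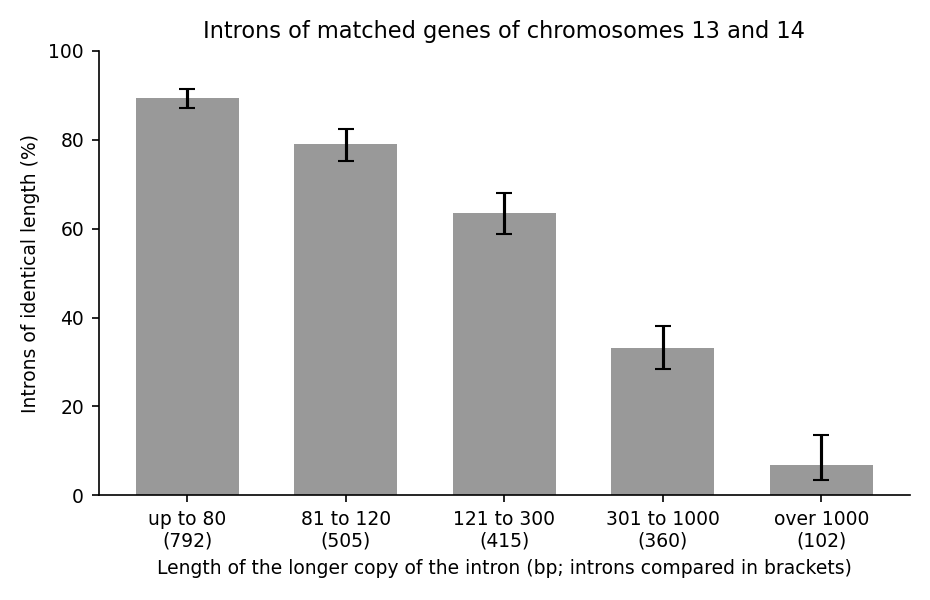
Share of introns with identical length in both copies of the 303 matched pairs, by the length of the longer copy in bp, with the number of introns compared under each bar. Error bars are 95% Wilson intervals, which treat the introns as independent. The share is 89.4% in the shortest class and 6.86% in the longest, and with classes by the shorter copy it is 86.0% and 7.87%.

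The difference in summed introns rested on a few gene models. Summed introns came to 798 kb on 13 and 617 kb on 14, a difference of 182 kb, and without the pair with the largest difference it was 23.5 kb. Without the next pair as well, evm.TU.Chr13.2316 and evm.TU.Chr14.2343 with 44.9 kb more on 13, it was -21.3 kb, so the direction turned. The pair with the largest difference is the joined model evm.TU.Chr13.3272_evm.TU.Chr13.3288 (63165426 to 63328222) and evm.TU.Chr14.3269 (61323243 to 61327409). Both have 12 CDS segments, and the first 11 lengths are equal. The intron after segment 10 measured 158106 bp on 13 and 65 bp on 14. Inside the model on 13 lie 5 other genes, among them evm.TU.Chr13.3272 (63165426 to 63169766), whose identifier is part of the joined name and whose first 7 segments are the same. This locus is therefore counted under both names on 13.

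Joined models of this kind numbered 22 on 13 and 23 on 14. In 3 of these 45 a part was also listed as a gene of its own, against 5 of 495 such models over the 22 pseudochromosomes, the 3 included. On 14 the case was evm.TU.Chr14.2944_evm.TU.Chr14.2945 (54753701 to 54795499), with 67 exons and a CDS of 13248 bp, the most exons and the longest CDS of that chromosome. Its parts were listed as evm.TU.Chr14.2944 (26 exons) and evm.TU.Chr14.2945 (40 exons). The second of these was matched to evm.TU.Chr13.2952 (56708623 to 56733607), the gene with most exons on 13, also 40. Their CDS measured 9759 bp on 13 and 9840 bp on 14, with a first segment of 210 bp on 13 and 291 bp on 14 and all 39 others equal. The intron after segment 19 was 8637 bp on 13 and 3328 bp on 14.

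The gene with the longest CDS on 13 had no match, and a pair of neighbours on 14 came close to its structure. It is evm.TU.Chr13.402 (8022618 to 8050699, plus strand), with 35 segments and 11577 bp. In the reversed stretch of 14, evm.TU.Chr14.265 (5129264 to 5149741) and evm.TU.Chr14.266 (5164749 to 5185226), both on the minus strand and 15.0 kb apart, have 36 segments and 11634 bp each. All 36 segments and all 35 introns of these neighbours were of equal length. Counted from the last segment, evm.TU.Chr13.402 had the same length as either in 33 of 34 segments, with 412 bp on 13 and 409 bp on 14 at the exception. Toward the start it had 1 segment of 375 bp on 13, where the genes on 14 had 58 and 377 bp. Of its 34 introns, 21 had equal length in evm.TU.Chr14.265. This trio was chosen after the values were seen.

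Neighbouring genes with a shared list of internal segment lengths numbered 9 pairs on 13 and 7 on 14. This count was wider than the matching rule, since it took genes with as few as 3 CDS segments. Such genes share only a lone internal length, as in evm.TU.Chr13.506 and evm.TU.Chr13.507 with 41 bp. Of all these pairs, 2 stood in the same interval between anchors on both chromosomes. On 13 the genes evm.TU.Chr13.1894 and evm.TU.Chr13.1895 (36653630 to 36660535), and on 14 the genes evm.TU.Chr14.1896 and evm.TU.Chr14.1897 (35968038 to 35975842), point toward each other and share internal segments of 232, 80, 175, 82, 88 and 44 bp. Each gene was more like its copy on the other chromosome than like its neighbour. The plus-strand genes had 8 of 8 segments and 6 of 7 introns equal between 13 and 14, and the minus-strand genes 7 of 8 and 4 of 7. Between the neighbours, 6 of 8 segments and 0 of 7 introns were equal on 13, and 6 of 8 and 0 of 7 on 14. The same likeness held for evm.TU.Chr13.3853 and evm.TU.Chr13.3857 (74862873 to 74927325) against evm.TU.Chr14.3854 and evm.TU.Chr14.3860 (72136852 to 72216718), with 7 of 7 and 6 of 7 introns equal between the chromosomes and 0 of 7 between the neighbours on either. These pairs are not among the 303, since 4 genes hold each list.

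Genes that lie between anchors were then searched for a counterpart of any size in the same interval, one with the whole list of CDS lengths in common. Such a gene was found for 350 of 2092 on 13 (16.7%) and 350 of 2134 on 14 (16.4%), against 13.7% to 21.8% in the other chromosome pairs. Among genes of 1 CDS segment the share was 24.0% on 13 and 23.8% on 14, and among those of 2 it was 15.8% on 13 and 15.9% on 14. The remaining genes between anchors had no equal CDS list in their interval. Copies in the reversed stretch could not be found this way, since an anchor inside it puts them into different intervals on 13 and 14. Whether they have a copy with a changed structure cannot be read from lengths alone.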

How the data were processed

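The gene models were combined by the authors with Evidence Modeler. Its inputs were predictions by Augustus and Genscan, proteins aligned with GeneWise, and transcripts assembled with PASA. The deposited values are positions in bp, with a start and an end for each feature. No version is stated for these tools in the sources used here. FastQC, HISAT2 and Cufflinks are further named in the submitters' processing notes. Expression values and genome sequence were not analysed here.

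A gene's length counts all bases between and including its ends, CDS length sums the segments, and an intron is the space between neighbouring exons. The end of the last gene stood for chromosome length. Gaps between overlapping neighbours were left out. Matched pairs needed at least 5 CDS segments, and introns between internal segments were compared. Anchors are the longest chain of matched genes with increasing position on both chromosomes, and intervals run between their starts. Chromosomes were paired as neighbours in number, 1 with 2 through 21 with 22. No test was run. Each value was set beside the other 10 pairs or 20 pseudochromosomes.

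The members and lists were chosen with earlier results of these data known. Genes named by rule are those with most exons, longest gene, intron and CDS, those beside the largest gap, the outer matched pairs, the matched pairs with most segments and largest differences, and the ends of the most unequal intervals and longest opposite runs. The reversed stretch, its flanks, the unmatched runs, the 2 displaced copies, the joined models and the duplicated genes were chosen after their values were seen. Alternatives changed the gene filter, the matching rule, the measure of centre and the windows. The matching, anchor and run steps were tested on simulated data. Python 3.11.15, NumPy 2.4.6, SciPy 1.17.1 and Matplotlib 3.10.9 were used.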

Additional observations from a re-analysis of the deposited data

How the results depend on the processing

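No paired analysis was possible because the annotation holds no value of any single library, and there is 1 library per tissue. Of 71 alternatives for 20 results, 58 left the value within its spread, 9 moved it and 4 reversed its sign. Of the 71, 9 were chosen after seeing the data. The spread is the SD over the other 10 chromosome pairs for differences, the 95% Wilson interval for shares, and a factor of 1.5 for counts. For some results it is wide beside the value, so that staying within it says little. Its SD was 163 genes for the gene number difference of -31 and 1120 bp for the median gap difference of 530.5 bp. No spread was set for the summed intron difference, so its alternatives count as reversed or, with the sign kept, as moved. The mean gap differed by 1656 bp between 13 and 14, against 530.5 bp for the median. Medians gave a gene length difference of 24 bp (mean -215 bp) and an intron difference of -1 bp (mean -37.3 bp). The difference in single-exon genes, 0.360 percentage points, was -0.101 with CDS segments in place of exons and -0.815 among genes with an annotated UTR. At least 8 CDS segments left 188 matched pairs and 5 opposite blocks, and blocks of at least 2 pairs numbered 20. Tolerances of 1% and 5 bp raised the identical shares to 92.1% of CDS and 84.9% of introns. The summed intron difference, 182 kb, was 23.5 kb without the pair that differs most and -21.3 kb without the 2 that differ most. Classed by the shorter copy, 86.0% of the shortest introns were identical, against 89.4%. The gene number difference ran from -42 to -30 under the 4 gene filters. Without the anchor inside the reversed stretch, the summed local differences were 886 genes and 35.2 Mb, against 1062 genes and 40.7 Mb. Joined models, missing contig borders and the lack of sequence limit what the lengths show: equal lists can arise in unrelated genes, and copies with a changed exon are not found.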

Other observations

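Gene identifiers carry a running number, and 2398 of 4544 numbers up to the highest were in use on 13 (52.8%) and 2430 of 4630 on 14 (52.5%). On the other 20 pseudochromosomes the share was 51.2% to 55.9%, and 1 of them lay below that of 14. What became of the skipped numbers was not analysed here.

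On unplaced scaffolds, 10 genes with at least 5 CDS segments shared their internal segment lengths with a gene of chromosome 13 or 14. They lay on 8 scaffolds, at most 2 on 1 scaffold.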
